A study of Mus musculus with 8 samples.

Results

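The genes described here encode glycoproteins, laminins and proteoglycans of the extracellular matrix, with the lysyl oxidases that cross-link it. They are a fixed list of 48 gene symbols, and all 48 were found among the 45706 genes of the deposited tables. RNA of natural killer (NK) cells was sequenced in 4 libraries titled tuNK, for cells sorted from tumours, and 4 titled spNK, for cells sorted from spleens. The mice were BALB/c and carried a CT26_β2m-/- tumour under the skin, grown from a CT26 colon carcinoma line that lacks β2-microglobulin, the small chain that MHC class I requires for display. Every sample's tissue field and source name contradict its title by naming the other tissue, and the groups here follow the title. Which cells are called tumour-infiltrating therefore rests on the title, while the division of the libraries into groups does not. Tumour leukocytes were enriched on a density gradient before the sort, a step the labels do not give for spleens. The labels name neither the sort markers nor the age of the mice, and do not say whether a replicate is a mouse or a pool, so the p-values reflect the spread among these libraries, which may be technical.

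Matrix glycoproteins such as fibronectin and the laminins form networks outside the cell that integrins on the cell surface bind. Laminins, nidogens and perlecan build the basement membrane under epithelia and around vessels, while fibrillins, fibulins and latent TGF-beta binding proteins build elastic fibres and hold TGF-beta in store. In a solid tumour these proteins come mainly from fibroblasts, vessels and the carcinoma cells themselves, and proteoglycans such as syndecans also sit on the surface of leukocytes.

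To show the regulatory sequence beside the levels, the 250 bases before the RefSeq start (GRCm38.p6) are given for the member with the highest tuNK level in each of 5 classes. These genes were chosen after their values were seen, among members with 1 window in the table and at least 20 TPM (a level scaled by transcript length and depth) in tuNK. Capitals mark the GC box GGGCGG on either strand, a motif that Sp1-type factors can bind. The windows are at chr11:55420081-55420330 (minus strand) for Sparc, chr6:91212514-91212763 (plus) for Fbln2, chr12:31265043-31265292 (plus) for Lamb1, chr4:137468553-137468802 (plus) for Hspg2 and chr2:164443189-164443438 (minus) for Sdc4, and each is written 5′ to 3′ in the direction of the gene. The RefSeq start can lie inside the longer gene of the GENCODE annotation used for the gene positions below.
Sparc: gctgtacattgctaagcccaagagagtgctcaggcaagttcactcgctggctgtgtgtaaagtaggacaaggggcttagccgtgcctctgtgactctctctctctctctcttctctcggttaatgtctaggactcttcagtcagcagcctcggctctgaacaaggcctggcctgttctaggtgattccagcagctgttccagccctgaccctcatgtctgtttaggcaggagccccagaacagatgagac
Fbln2: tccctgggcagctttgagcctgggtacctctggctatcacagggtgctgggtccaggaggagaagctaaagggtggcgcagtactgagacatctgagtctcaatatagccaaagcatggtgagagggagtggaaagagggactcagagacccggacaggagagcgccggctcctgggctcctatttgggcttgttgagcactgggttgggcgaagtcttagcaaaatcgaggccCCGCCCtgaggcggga
Lamb1: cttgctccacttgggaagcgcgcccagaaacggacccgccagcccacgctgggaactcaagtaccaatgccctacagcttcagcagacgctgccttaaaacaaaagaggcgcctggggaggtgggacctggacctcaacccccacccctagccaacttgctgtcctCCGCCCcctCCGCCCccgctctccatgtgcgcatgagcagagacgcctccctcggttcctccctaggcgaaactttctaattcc
Hspg2: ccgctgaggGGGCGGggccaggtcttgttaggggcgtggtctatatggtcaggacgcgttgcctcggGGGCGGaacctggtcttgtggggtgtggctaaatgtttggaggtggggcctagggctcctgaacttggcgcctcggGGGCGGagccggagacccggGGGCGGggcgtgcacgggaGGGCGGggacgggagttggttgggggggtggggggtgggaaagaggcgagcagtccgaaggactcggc
Sdc4: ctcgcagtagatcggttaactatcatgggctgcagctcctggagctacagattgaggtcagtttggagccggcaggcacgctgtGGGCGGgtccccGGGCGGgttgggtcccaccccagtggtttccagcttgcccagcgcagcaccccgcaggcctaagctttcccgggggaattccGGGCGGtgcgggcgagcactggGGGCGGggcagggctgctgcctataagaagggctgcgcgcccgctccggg
The Sparc window held 0 GC boxes at 54% G and C, and the Hspg2 window held 5 at 70%. Over all members, 31 had a window, and 22 of these held the motif. It stood in the windows of 63.2% of the 9845 tested genes in the table and of 35.4% of all 27025 genes. The letters TATAAA stood in 3 of the 31 members (Postn, Thbs2 and Tnc), against 14.3% of all genes and 7.88% of tested genes. CCAAT stood in 9 members, against 37.5% of all and 40.7% of tested genes, and CATTCC, the TEAD motif, in 3, against 14.4% and 12.7%. TGANTCA, the AP-1 motif, stood in 1 member, Efemp1, against 7.82% of all and 5.71% of tested genes, both strands counted in each case. Such matches describe the letters of these windows only.

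The matrix genes were higher in tuNK almost throughout. In each library the TPM of the 48 members summed to 1090, 695, 703 and 754 in tuNK 1 to 4, against 88.2, 83, 79.8 and 91.4 in spNK 1 to 4. Of the 48 members, 43 passed the filter on low counts, and edgeR's quasi-likelihood test with Benjamini-Hochberg adjustment over all genes called 38 higher and 1 lower in tuNK (adjusted p under 0.05). Among all 14006 tested genes, 35.6% were called higher and 34.0% lower, 69.6% in all. Of the 43, 24 passed the filter through their tuNK counts alone, so that a difference between the groups was built into their passing. In 38 of the 43 tested members every tuNK library lay above every spNK library, as in 34.4% of tested genes, and in 1 member the groups were separated the other way, as in 32.7%. Without tuNK 1, the tuNK library with the highest fibroblast marker sum, and spNK 3, the spNK library with the highest macrophage, epithelial, plasma cell, B cell, erythroid and neutrophil marker sums and the lowest NK marker sum, 38 members were called higher and 2, Thbs1 and Gpc1, lower.

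**Figure D1:**
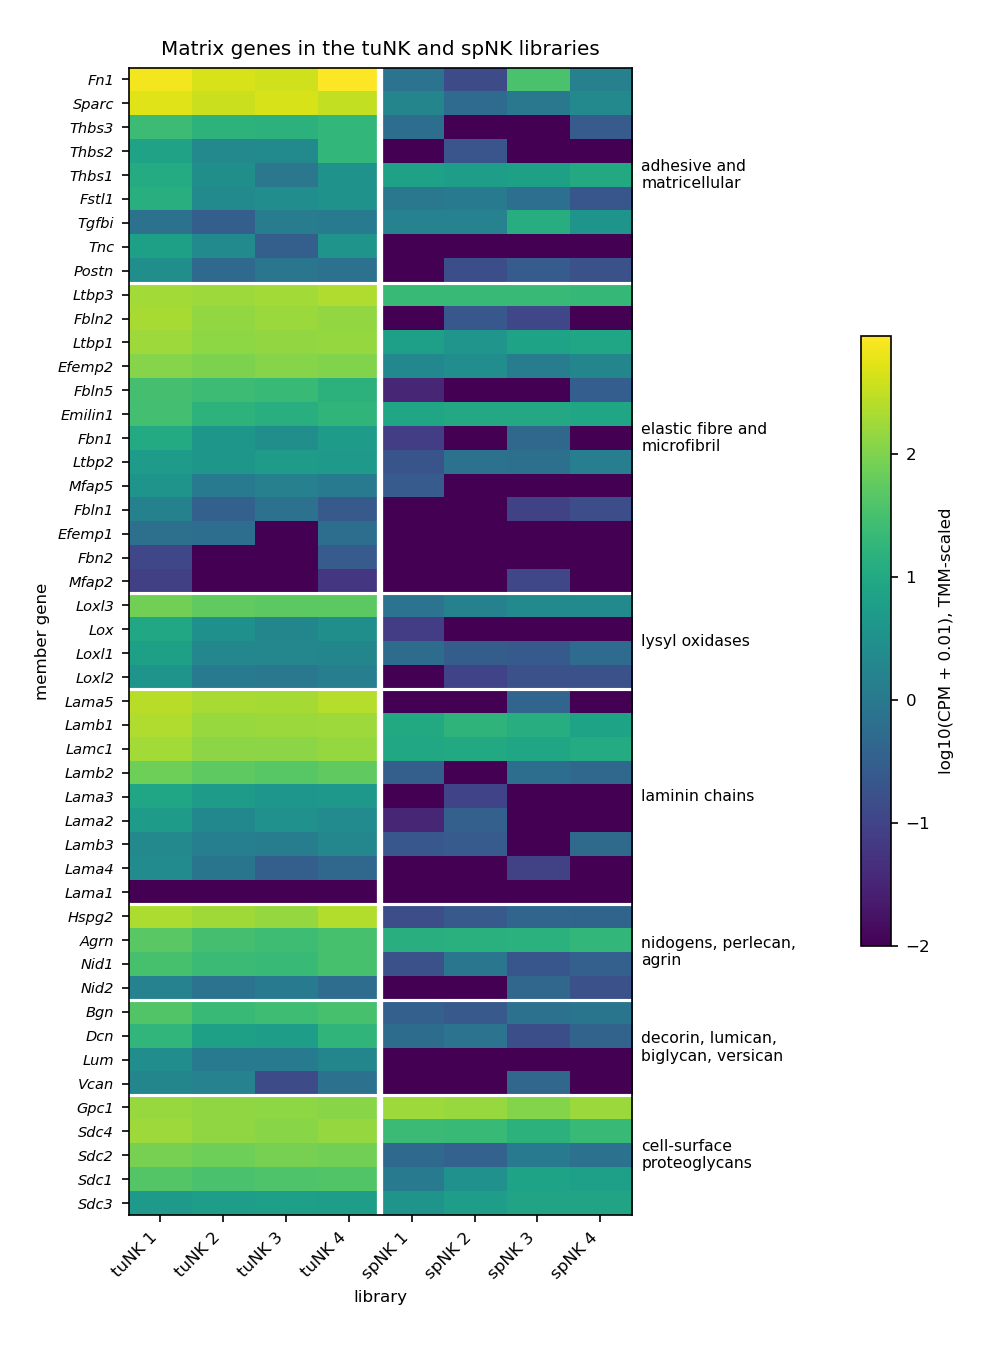
Heat map of all 48 members (rows, grouped by class and ordered by level) in the 4 tuNK libraries (left of the white line) and the 4 spNK libraries, as log10 of library-scaled counts (CPM) plus 0.01. Sparc and Fn1 are brightest in tuNK, Gpc1 is about as bright in both groups, and Lama1 is at 0 in all 8 libraries.

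Other RNAs in the same libraries differed beside them. The NK marker list, with Ncr1, Eomes and Prf1, summed to 4010 to 5670 CPM (counts scaled to library size with TMM factors) in tuNK and 12600 to 17900 CPM in spNK, and all 10 of its genes were detected in both groups and called lower in tuNK (2 higher and 5 lower on the second scale below). The list of fibroblast and mesenchymal markers summed to 2480 to 3720 CPM in tuNK and 88.4 to 131 CPM in spNK, with 11 of 12 genes called higher. Among its genes, Col1a2 averaged 1860 ± 470 CPM in tuNK and 1.42 ± 0.759 CPM in spNK, whereas Acta2 (1.27 CPM), Tagln (1.33 CPM) and Fap (0.0968 CPM) were low in tuNK too. Most of this list's spNK sum came from Thy1, whose spNK mean was 101 CPM (tuNK mean 189 CPM). The next highest of its genes in spNK, Cald1, averaged 5.74 CPM. The epithelial list of 9 genes summed to 47.8 to 69.3 CPM in tuNK and 1.22 to 10.2 CPM in spNK. Its highest gene in tuNK was Krt18 (31.2 CPM in tuNK, 1.63 CPM in spNK). Of its 6 genes tested, 4 were higher. Epcam (0.762 CPM in tuNK, 0.292 CPM in spNK) and Cdh1 (0.729 CPM in tuNK, 1.71 CPM in spNK) were not called. In contrast, endothelial markers summed to 45 to 71 CPM in tuNK and 154 to 190 CPM in spNK. Most of this was Pecam1 (51.1 CPM in tuNK, 82.4 CPM in spNK) and, in spNK, Vwf (65.9 CPM). Of the 7 endothelial genes tested, 5 were lower and 2, Kdr and Cldn5, were not called. Cdh5 was too low to test, at 0.476 CPM in tuNK and 0.0687 CPM in spNK, as were Tek and Emcn. Platelet markers summed to 5.51 to 7.6 CPM in tuNK and 363 to 671 CPM in spNK. Macrophage markers summed to 12.2 to 18.2 CPM in tuNK and 43.4 to 270 CPM in spNK, but most of the spNK sum was Lyz2 (2.16 CPM in tuNK, 96.4 CPM in spNK), a gene that neutrophils and monocytes also express. Of the 7 macrophage genes tested, 1 was higher in tuNK (Mrc1), 2 were lower (Lyz2 and Csf1r), and Cd68, C1qa, C1qb and C1qc were not called. Plasma cell markers summed to 388 to 474 CPM in tuNK and 473 to 1340 CPM in spNK, where the tuNK sum was nearly all Txndc5 (323 CPM) and Xbp1 (98 CPM), genes of secretory cells in general. The more specific Jchain and Mzb1 averaged 0.00635 and 0 CPM in tuNK and 536 and 10.6 CPM in spNK. B cell, erythroid and neutrophil markers summed to no more than 1.94 CPM in any tuNK library and to at least 10.7, 158 and 36.5 CPM in spNK. Vwf of the endothelial list and Treml1, Clec1b, Gp1ba and Gp6 of the platelet list were at 0 in every tuNK library. The part of these cells in the results below was not tested, and in bulk RNA fewer cells of a type and less RNA per cell cannot be told apart.

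A second scale was set by 30 genes expressed across leukocytes, whose summed CPM in tuNK was 30% of that in spNK. With this scaling the log2 fold changes of all tested genes had a median of 1.76, against 0.02 with TMM. On that scale, called leukocyte-scaled, 41 of the 43 tested members were higher and 0 lower, beside 79.1% and 6.02% of all genes. Of the members called higher with TMM, 25 had a log2 fold change of at least 4, as did 7.62% of all tested genes.

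Fibronectin and SPARC led the adhesive and matricellular glycoproteins, of which 7 of 9 rose, 1 fell and 1 was not called. Sparc, which encodes a collagen-binding glycoprotein that shapes matrix assembly (ENSMUSG00000018593, GRCm38 chromosome 11, 55394500 to 55423183), had 522, 357, 445 and 321 CPM in tuNK 1 to 4, against 1.75, 0.533, 0.96 and 2.13 CPM in spNK 1 to 4. The groups did not overlap, and the log2 fold change was 8.29 ± 0.43 (edgeR adjusted p = 4.10e-07). Per length it was the most abundant member in tuNK, at 197 ± 59.9 TPM, with 0.897 ± 0.408 TPM in spNK (SD, n = 4 each). Fn1, the gene of fibronectin (chromosome 1, 71585520 to 71653200), had 731, 455, 401 and 896 CPM in tuNK, against 0.745, 0.124, 33.7 and 1.45 CPM in spNK. One spNK library thus stood far above its group, and the same library, spNK 3, had the highest macrophage marker sum, 270 CPM, against 43.4 to 75.9 CPM in the other 3. Of that sum 243 CPM was Lyz2, and the plasma cell (1340 CPM), erythroid (729 CPM), neutrophil (145 CPM) and B cell (32.9 CPM) sums were also highest there. The log2 fold change of Fn1 was 6.10 ± 1.53 (edgeR adjusted p = 0.00727), and 9.70 without spNK 3.

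The thrombospondins, which bind matrix and cell receptors, differed from one another. Thbs3 had 24.5, 15.7, 15.2 and 19.1 CPM in tuNK, against 0.605, 0, 0 and 0.249 CPM in spNK. Its log2 fold change was 6.52 ± 0.88 (7.89 without spNK 1), and 318 of its exon bases overlap Mtx1 on the other strand. Thbs2 had 7.09, 2.1, 2.21 and 18.9 CPM in tuNK, against 0, 0.195, 0 and 0 CPM in spNK, so its tuNK level rested most on tuNK 4, and the log2 fold change of 7.04 ± 1.26 was 6.09 without that library. Without spNK 2 all remaining spNK libraries were at 0, and Thbs2 was at least 114-fold higher against a floor of 3 counts per library. Thbs1, which platelets carry in their granules, had 11.2, 2.98, 0.89 and 3.34 CPM in tuNK, against 6.89, 5.77, 6.62 and 10.2 CPM in spNK. The groups overlapped through tuNK 1, and the log2 fold change of -0.68 ± 0.61 was not called by edgeR (adjusted p = 0.345). Without tuNK 1 it was called lower, at -1.62 (adjusted p = 0.0092), while leukocyte-scaled it was 1.09 (adjusted p = 0.135). The platelet marker sums of spNK 1 to 4 were 363, 436, 430 and 671 CPM, so spNK 4 was highest in both. Below it the orders differed, since spNK 1 had the lowest platelet sum and spNK 2 the lowest Thbs1. The part of platelets in these values was not tested. Within each library Thbs3 made up 72.6 to 92.4% of the thrombospondin TPM in tuNK and 0 to 39.3% in spNK, where Thbs1 made up 60.7 to 100%.

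Tgfbi was the 1 member called lower in tuNK. It encodes a TGF-beta-induced adhesion protein that macrophages also make (ENSMUSG00000035493, chromosome 13, 56609523 to 56639562). It had 0.725, 0.303, 1.22 and 1.07 CPM in tuNK, against 1.56, 1.56, 12.2 and 3.69 CPM in spNK. All tuNK values were below all spNK values, and the log2 fold change was -2.51 ± 0.73 (edgeR adjusted p = 0.0109). It was -1.46 (adjusted p = 0.0415) without spNK 3, the library in which several other cell types' markers were highest, and -0.86 (adjusted p = 0.315) when leukocyte-scaled. With spNK 3 and tuNK 1 both left out it was -1.40 and not called (adjusted p = 0.0793).

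The remaining genes of this class were at low levels in tuNK. Tnc, the gene of tenascin C, a glycoprotein of wounds and tumour stroma, had 6.65, 2.19, 0.305 and 3.6 CPM in tuNK and 0 in all spNK libraries. It was therefore at least 50.6-fold higher against the floor of 3 counts per spNK library, a mean of 0.063 CPM, and its mean in tuNK without tuNK 1 was 2.03 CPM. It was called higher (edgeR adjusted p = 7.22e-04). Fstl1, a secreted glycoprotein related to SPARC, had 12.7, 2.19, 2.72 and 3.55 CPM in tuNK, against 0.931, 1.14, 0.633 and 0.204 CPM in spNK. Postn, which encodes periostin, a partner of collagen, had 2.87, 0.489, 0.864 and 0.689 CPM in tuNK, against 0, 0.142, 0.265 and 0.159 CPM in spNK. Both were highest in tuNK 1 and called higher, with log2 fold changes of 2.86 ± 0.69 (edgeR adjusted p = 0.0036) and 3.08 ± 0.94 (adjusted p = 0.0124). Without tuNK 1 the value of Fstl1 was 1.93 (adjusted p = 0.0137), and that of Postn was 2.22 and no longer called (adjusted p = 0.0687). On log2 TPM neither was called, nor was Fstl1 with offsets for transcript length (1.90, adjusted p = 0.0636).

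**Figure D2:**
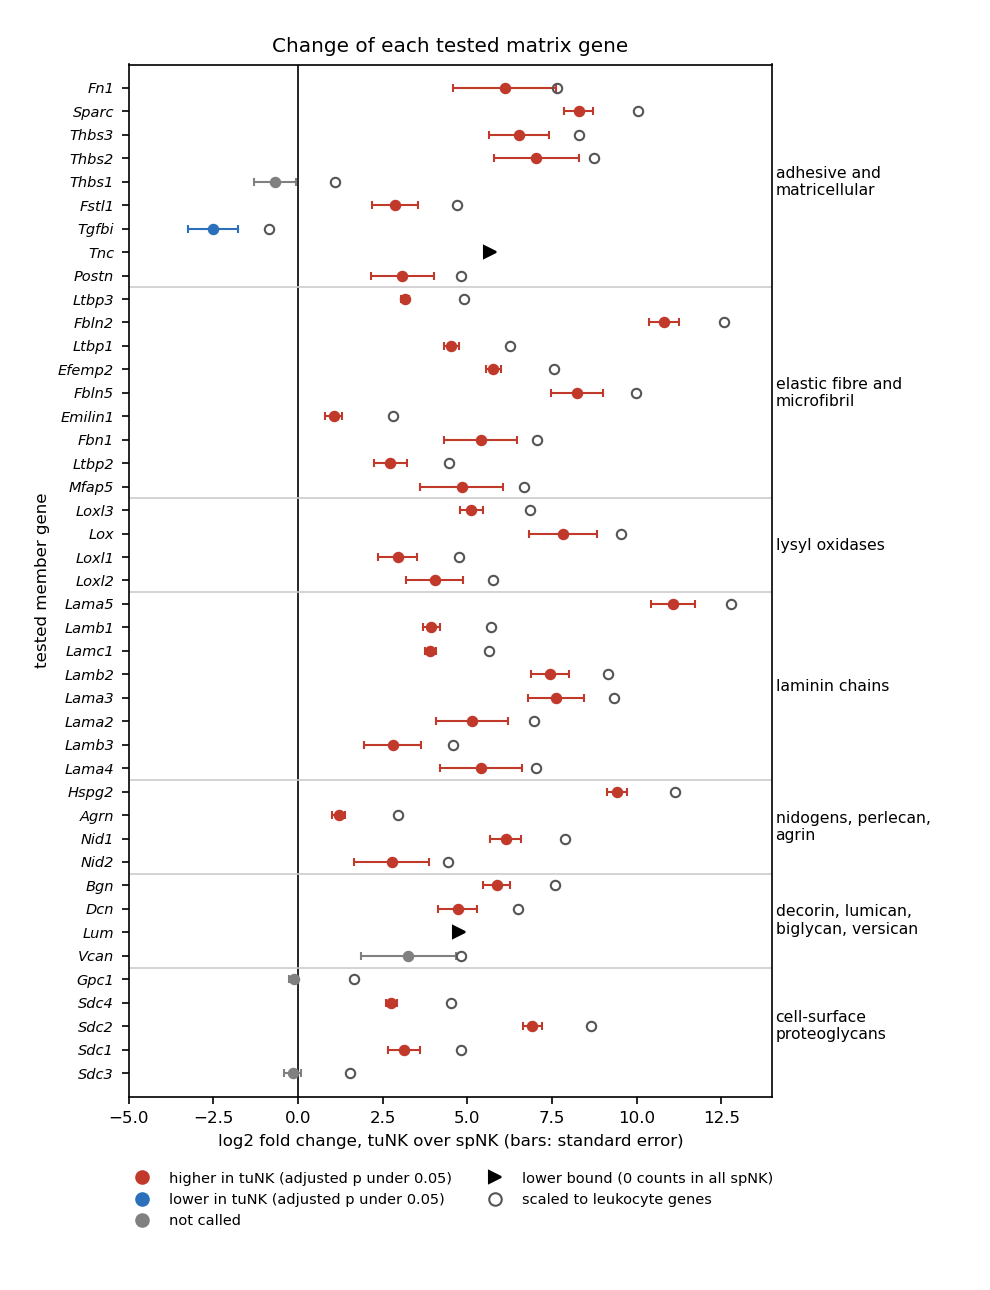
Log2 fold change of each of the 43 tested members, tuNK over spNK, with its standard error (filled points, n = 4 libraries a group), and the leukocyte-scaled value (open circles). Triangles mark lower bounds for Tnc and Lum, which had 0 counts in every spNK library. Tgfbi alone is called lower, and Thbs1, Vcan, Sdc3 and Gpc1 are not called.

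Genes of elastic fibres and of TGF-beta storage rose in tuNK in 9 of 13 members, and the other 4 (Fbn2, Fbln1, Efemp1 and Mfap2) were too low to test. Efemp2, which encodes fibulin-4, a protein that brings lysyl oxidase to elastin, had 115, 96.2, 111 and 102 CPM in tuNK, against 2, 2.66, 1.23 and 1.88 CPM in spNK. The tuNK libraries differed little, with a coefficient of variation of 8.15%, the lowest of all tested members, and the log2 fold change was 5.77 ± 0.21 (edgeR adjusted p = 8.31e-09). Of its exon bases, 173 overlap Mus81 on the other strand. Fbln2, the gene of fibulin-2, had 205, 142, 160 and 141 CPM in tuNK, against 0, 0.213, 0.102 and 0 CPM in spNK. With a log2 fold change of 10.81 ± 0.45 (edgeR adjusted p = 6.88e-08, 12.00 without spNK 2) it stood at 39.7 ± 11.9 TPM in tuNK and at 0 in 2 of the 4 spNK libraries. Together Efemp2 and Fbln2 dominated the 5 fibulins in tuNK, with 60.8 to 69.7% and 27.5 to 34.9% of their TPM.

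Of the latent TGF-beta binding proteins in the member list, which tether TGF-beta to the matrix, Ltbp3 and Ltbp1 were the highest. Ltbp4, outside that list and named after its values were seen, was higher still in tuNK. It had 348 ± 29.4 CPM in tuNK and 0.855 ± 0.357 CPM in spNK (log2 fold change 8.63 ± 0.25, edgeR adjusted p = 4.03e-09). Ltbp3 had 182, 169, 185 and 235 CPM in tuNK, against 21.9, 22.9, 22.1 and 20.1 CPM in spNK, and Ltbp1 had 166, 128, 140 and 147 CPM in tuNK, against 6.26, 3.85, 7.29 and 8 CPM in spNK. Both were present in every spNK library, and both rose without overlap, with log2 fold changes of 3.15 ± 0.12 (edgeR adjusted p = 8.37e-09) and 4.52 ± 0.22 (adjusted p = 6.70e-08). Ltbp2 was lower in level, at 4.78 ± 0.591 CPM in tuNK and 0.72 ± 0.463 CPM in spNK, and rose by 2.72 ± 0.49 on the log2 scale. Ltbp1 held 37.3 to 47.3% of the TPM of the 3 member genes in tuNK and 13.4 to 32.4% in spNK, shares that leave out Ltbp4.

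Fbln5, which encodes fibulin-5, an elastic fibre organiser, had 30.5, 24.6, 22.5 and 15.4 CPM in tuNK, against 0.0233, 0, 0 and 0.295 CPM in spNK (log2 fold change 8.24 ± 0.76, and 11.23 without spNK 4). Emilin1, whose product sits between elastin and microfibrils, had 29.3, 15.6, 12.8 and 17 CPM in tuNK, against 8.1, 9.82, 9.74 and 8.36 CPM in spNK. Its rise was small, 1.05 ± 0.24 on the log2 scale (edgeR adjusted p = 0.00244), and was not called on log2(TPM + 1) (0.45, adjusted p = 0.158). Fbn1, the gene of fibrillin-1, averaged 5.77 ± 3.48 CPM in tuNK and 0.135 ± 0.226 CPM in spNK, and the microfibril gene Mfap5 1.81 ± 1.27 CPM in tuNK and 0.064 ± 0.128 CPM in spNK. Both rose, by 5.39 ± 1.08 and 4.83 ± 1.23 on the log2 scale, which became 7.89 for Fbn1 without spNK 3 and 4.19 for Mfap5 without tuNK 1. Without spNK 1, Mfap5 had 0 counts in the rest of spNK and was at least 29.8-fold higher. The fibrillin gene Fbn2 reached at most 0.255 CPM in tuNK and was at 0 in spNK.

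Lysyl oxidases are the copper enzymes that cross-link collagen and elastin. All 4 in the member list rose in tuNK, and among these Loxl3 was by far the most abundant. Loxl3 had 80.4, 54.4, 50.9 and 51.7 CPM in tuNK, against 0.768, 1.47, 2.21 and 2.38 CPM in spNK (log2 fold change 5.12 ± 0.33, edgeR adjusted p = 5.94e-07). It held 81.2 to 94.4% of the TPM of the 4 member genes in tuNK, a share that leaves out Loxl4, and 535 of its exon bases overlap Htra2 on the other strand. Lox itself had 9.24, 3.05, 1.86 and 2.88 CPM in tuNK, against 0.0698, 0, 0 and 0 CPM in spNK. Loxl1 had 6.63, 1.96, 1.91 and 1.86 CPM in tuNK, against 0.558, 0.284, 0.245 and 0.521 CPM in spNK, and Loxl2 had 3.57, 1.12, 0.94 and 1.3 CPM in tuNK, against 0, 0.0888, 0.163 and 0.159 CPM in spNK. In all 4 member genes tuNK 1 was the highest library, and the groups did not overlap. Log2 fold changes were 7.83 ± 1.00 for Lox, 2.94 ± 0.58 for Loxl1 and 4.03 ± 0.85 for Loxl2, and 7.09, 2.23 and 3.39 without tuNK 1. Without spNK 1, Lox had 0 counts in the rest of spNK and was at least 70.1-fold higher.

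Laminins are trimers of an alpha, a beta and a gamma chain, and in tuNK 1 gene or 2 genes of each kind stood out. Lama5, the alpha 5 chain of most adult basement membranes (ENSMUSG00000015647, chromosome 2, 180176373 to 180225859), had 268, 199, 197 and 252 CPM in tuNK, against 0, 0, 0.408 and 0 CPM in spNK. It rose by 11.07 ± 0.66 on the log2 scale (edgeR adjusted p = 1.30e-06). Without spNK 3, the 1 spNK library with any Lama5, the fold was at least 3600. Lamc1, the gamma 1 chain, had 188, 126, 122 and 147 CPM in tuNK, against 9.12, 10.2, 8.47 and 11.3 CPM in spNK (log2 fold change 3.90 ± 0.16, edgeR adjusted p = 1.66e-08). Lamb1, the beta 1 chain, had 226, 152, 158 and 170 CPM in tuNK, against 10.1, 16.3, 12.3 and 7.43 CPM in spNK (3.93 ± 0.25, adjusted p = 5.59e-07). The beta 1 and gamma 1 chains were thus detected in every spNK library, whereas the alpha 5 chain was detected in 1 of 4.

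Lamb2, the beta 2 chain, had 73.7, 54, 46.8 and 55.1 CPM in tuNK, against 0.302, 0, 0.613 and 0.431 CPM in spNK (log2 fold change 7.44 ± 0.56). Lamb1 held 67 to 75.7% of the beta chain TPM in tuNK and 94 to 98.5% in spNK, and Lamb2 held 23.4 to 32.2% in tuNK and 0 to 4.88% in spNK. Among the alpha chains Lama5 held 93.3 to 97.4% of the TPM in tuNK. In TPM, Lama5 stood at 0.915 to 1.28 times Lamc1 in the tuNK libraries and at 0 to 0.0135 times Lamc1 in spNK. 

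The other alpha chains were low, and Lama1 had 0 counts in all 8 libraries. Lama2, the alpha chain of muscle, had 5.49, 2.07, 3.25 and 2.45 CPM in tuNK, against 0.0233, 0.32, 0 and 0 CPM in spNK. Lama4, the alpha chain of vessels and mesenchyme, had 2.41, 0.815, 0.305 and 0.434 CPM in tuNK, against 0, 0, 0.0817 and 0 CPM in spNK. Lama3, an epithelial chain, averaged 5.47 ± 2.01 CPM in tuNK and was detected in spNK 2 alone of the spNK libraries, at 0.0888 CPM. None of these groups overlapped. All 3 were called higher, and with their spNK library left out the bounds were at least 82.5-fold for Lama3 without spNK 2 and 15.6-fold for Lama4 without spNK 3. The log2 fold changes were 7.61 ± 0.82 for Lama3 and 5.40 ± 1.22 for Lama4, the second 4.46 without tuNK 1 and not called on log2(TPM + 1). That of Lama2 was 5.14 ± 1.06 (8.32 without spNK 2), and with offsets for transcript length it was 2.29 and not called (adjusted p = 0.207), nor was it on log2(TPM + 1). Lamb3, the beta chain of epithelial laminin, averaged 1.68 ± 0.432 CPM in tuNK and 0.239 ± 0.204 CPM in spNK and rose by 2.80 ± 0.84 on the log2 scale (3.42 without spNK 4).

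**Figure D3:**
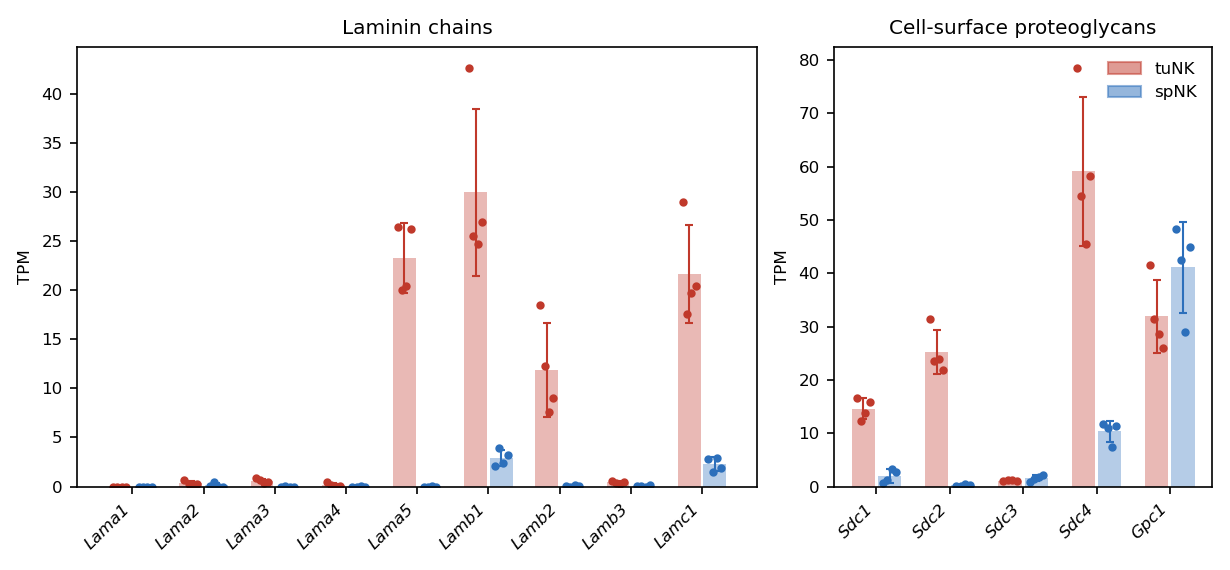
TPM of the 9 laminin chains (left panel) and the 5 cell-surface proteoglycans (right panel) in tuNK (red, left bar of each pair) and spNK (blue). Bars are means, error bars the SD, and points the 4 libraries of each group. Lama5, Lamb1, Lamb2 and Lamc1 carry the laminin signal of tuNK, and Gpc1 overlaps between the groups.

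The partners of laminin in the basement membrane rose with it. Hspg2, the gene of the large heparan sulfate proteoglycan perlecan (ENSMUSG00000028763, chromosome 4, 137468769 to 137570630), had 225, 179, 148 and 246 CPM in tuNK, against 0.14, 0.231, 0.408 and 0.385 CPM in spNK. Its log2 fold change of 9.41 ± 0.29 had the smallest edgeR adjusted p of all members, 6.52e-09. Nid1, whose product nidogen-1 links laminin to collagen IV, had 32.4, 23.9, 23 and 32.4 CPM in tuNK, against 0.163, 0.852, 0.204 and 0.317 CPM in spNK (6.13 ± 0.45, and 6.92 without spNK 2). Its paralogue Nid2 had 1.55, 0.769, 1.14 and 0.587 CPM in tuNK, against 0, 0, 0.429 and 0.159 CPM in spNK. The groups did not overlap, but the call of Nid2 was weak (2.76 ± 1.10, adjusted p = 0.0436). It was lost on leaving out any 1 library other than spNK 3 (adjusted p from 0.0627 to 0.115), without which the value was 4.22. It was also lost with scaling by library size, with no filter, with length offsets and on log2(TPM + 1). Nid2 also shares 437 exon bases with Rtraf, at 154 CPM in tuNK and 116 CPM in spNK, on the other strand. Agrn, the gene of agrin, the heparan sulfate proteoglycan of neuromuscular junctions that lymphocytes also make, had 49.3, 31.6, 26.5 and 31.8 CPM in tuNK, against 13.2, 13.9, 14.6 and 18.7 CPM in spNK. It was thus the member of this class that spNK held, and it rose 2.3-fold (1.20 ± 0.20, edgeR adjusted p = 2.49e-04).

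The small leucine-rich proteoglycans bind collagen fibrils, and of those in the member list Bgn was the highest in TPM. Ogn and Prelp, outside that list and named after their values were seen, were higher still in tuNK. They averaged 22.1 and 15.4 TPM there, against 14.8 TPM for Bgn, and 0 and 0.0622 TPM in spNK. Bgn, the gene of biglycan, had 40.6, 21.7, 26.2 and 32 CPM in tuNK, against 0.326, 0.231, 0.694 and 0.838 CPM in spNK (log2 fold change 5.86 ± 0.40, edgeR adjusted p = 6.26e-07). Dcn, the gene of decorin and a common marker of fibroblasts, had 18.4, 6.57, 5.79 and 17.6 CPM in tuNK, against 0.558, 0.763, 0.143 and 0.363 CPM in spNK. Its tuNK libraries fell into a high pair, tuNK 1 and 4, and a low pair, and its log2 fold change was 4.71 ± 0.58. Lum, the gene of lumican, had 2.61, 1.14, 1.12 and 1.86 CPM in tuNK and 0 in all spNK libraries, at least 26.7-fold higher (edgeR adjusted p = 8.22e-05). Vcan, the gene of the large chondroitin sulfate proteoglycan versican, which monocytes also make, had 1.84, 1.58, 0.127 and 0.689 CPM in tuNK, against 0, 0, 0.429 and 0 CPM in spNK. The groups overlapped, and it was not called (3.26 ± 1.40, adjusted p = 0.06). Without spNK 3 it had 0 counts in the rest of spNK, was at least 16.7-fold higher and was called (adjusted p = 0.00176). It was also called by DESeq2 (3.31, adjusted p = 0.0399) and when leukocyte-scaled (4.82, adjusted p = 0.0117).

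The cell-surface heparan sulfate proteoglycans were the class in which spNK held most RNA, with a summed level of 113 to 169 TPM in tuNK and 41.8 to 61.7 TPM in spNK. Gpc1, the gene of the lipid-anchored proteoglycan glypican-1 (ENSMUSG00000034220, chromosome 1, 92831645 to 92860779), had 157, 134, 130 and 116 CPM in tuNK, against 167, 153, 106 and 160 CPM in spNK. The groups overlapped, and the log2 fold change was -0.13 ± 0.14 (edgeR adjusted p = 0.451). Leaving out spNK 3, the lowest of its group, gave -0.26 and a call (adjusted p = 0.0419), while the leukocyte-scaled value was 1.64 (adjusted p = 2.47e-06). Gpc1 alone held 36.3 to 54.8% of the TPM of all 48 members in spNK, and 3.45 to 4.52% in tuNK.

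The syndecans, single-pass proteoglycans that bind growth factors and matrix, moved unequally. Sdc4 had 168, 132, 117 and 149 CPM in tuNK, against 23.4, 22.3, 15.5 and 23.1 CPM in spNK, and rose 6.71-fold (2.75 ± 0.16, edgeR adjusted p = 1.38e-07). Sdc2, typical of mesenchymal cells, had 86.7, 71.9, 85.8 and 77.7 CPM in tuNK, against 0.489, 0.355, 1.12 and 0.702 CPM in spNK, and rose 121-fold (6.92 ± 0.28, adjusted p = 2.40e-08). Sdc2 held 22.6 to 28.5% of the syndecan TPM in tuNK and 0.919 to 3.03% in spNK. Sdc1, a gene of epithelia and plasma cells, had 42.2, 33.8, 38.9 and 41.4 CPM in tuNK, against 1.12, 3.16, 7.35 and 6.23 CPM in spNK (3.13 ± 0.48, adjusted p = 3.74e-04). The spNK libraries had the same order for the plasma cell gene Jchain, at 121, 418, 947 and 658 CPM, while Jchain in tuNK was at 0 in 3 libraries and 0.0254 CPM in tuNK 3. Sdc3 had 4.71, 5.78, 6.35 and 5.85 CPM in tuNK, against 3.72, 5.84, 7.9 and 7.95 CPM in spNK. The groups overlapped and Sdc3 was not called (-0.16 ± 0.26, adjusted p = 0.596), though leukocyte-scaled it was higher by 1.54 (adjusted p = 6.70e-04).

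The members also differed in how evenly the 4 tuNK libraries held them. In 37 of the 43 tested members tuNK 1 was the highest library of its group, compared with 31% of all tested genes. Among the 20 members with at least 20 CPM in tuNK the coefficient of variation between libraries was 8.15 to 37.6%, with a median of 18.9%, and among the 23 under 20 CPM it was 12.2 to 104%, with a median of 60.3%. In 15 members, all under 20 CPM, tuNK 1 stood at 2 or more times the median of the other 3 libraries. These were Postn, Thbs1, Tnc, Fbn1, Fstl1, Lox, Loxl1, Loxl2, Lama2, Lama4, Nid2, Dcn, Lum, Vcan and Mfap5, while Thbs2 was the 1 member for which another library, tuNK 4, did so. The sum of fibroblast and mesenchymal markers in tuNK 1 was 1.48 times the mean of the other tuNK libraries, and that of the 48 members 1.29 times. The part of those cells in the spread was not tested.

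**Figure D4:**
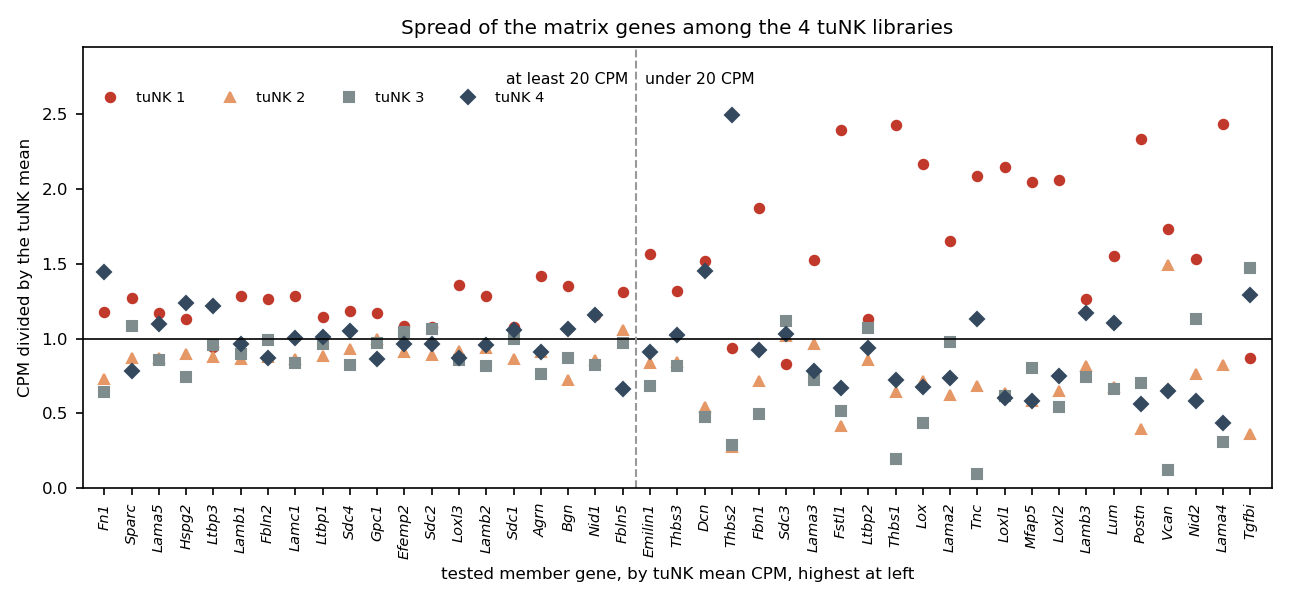
CPM of each tested member in the 4 tuNK libraries, divided by the tuNK mean, with members ordered by that mean from left to right. To the left of the dashed line (at least 20 CPM) the points mostly lie closer to 1, and to its right tuNK 1 (red circles) stands further apart for many members. The highest library was tuNK 1 for 17 of the 20 members on the left and 20 of the 23 on the right.

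Related genes outside the 48 were compared in the same test. Of 85 other matrix glycoproteins, proteoglycans and secreted matrix-associated proteins, 40 were tested, of which 27 were higher and 7 lower in tuNK. Their median log2 fold change was 4.52, and the shares over all tested genes are the 35.6% and 34.0% given above. Leukocyte-scaled, 35 were higher and 1 lower, beside 79.1% and 6.02% of all tested genes. Among the most abundant in TPM that rose were Igfbp6 and Igfbp4, which bind insulin-like growth factors (408 ± 41 and 584 ± 85.6 CPM in tuNK, 2.22 ± 1.13 and 10.1 ± 5.06 CPM in spNK), and Tinagl1, a basement membrane glycoprotein (237 ± 27.3 CPM in tuNK, 1.92 ± 1.76 CPM in spNK). The log2 fold change of Tinagl1 was 6.95, and 7.81 without spNK 3. Cyr61, the matricellular protein CCN1, had 1160, 625, 179 and 347 CPM in tuNK and 0 in all spNK libraries, at least 9170-fold higher against the floor of 3 counts per library and at least 6090-fold without tuNK 1. The most abundant that fell was Srgn, the gene of serglycin, the proteoglycan that packs cytotoxic granules, at 268 ± 76 CPM in tuNK and 541 ± 39.7 CPM in spNK (-1.01 ± 0.17, edgeR adjusted p = 3.32e-04, but 0.71 when leukocyte-scaled). Mfap3, Crim1 and Creld1 also fell, by 1.05, 0.47 and 1.49 on the log2 scale, and all 3 were above 0 when leukocyte-scaled (0.70, 1.29 and 0.21). The other 3 genes that fell, named after their values were seen, stayed below 0 on that scale. Mmrn1, the gene of multimerin-1 of platelets and endothelium, was at 0 in all tuNK libraries and averaged 11.7 ± 3.55 CPM in spNK. It was thus at least 155-fold lower in tuNK against a floor of 3 counts per tuNK library, and it was the 1 gene of the list called lower when leukocyte-scaled (edgeR adjusted p = 1.32e-06). Smoc2 and Spock2 had log2 fold changes of -2.68 and -2.15 and were at -1.01 and -0.49, not called, when leukocyte-scaled.

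Genes that build or trim heparan and chondroitin sulfate chains moved both ways. Of 45 genes 33 were tested, with 17 higher and 15 lower and a median log2 fold change of 0.25. Among all tested genes, 35.6% were higher and 34.0% lower. Leukocyte-scaled, 24 of the 33 were higher and 2 lower, beside 79.1% and 6.02% of all tested genes, so these counts do not set the list apart. Hpse, which encodes heparanase, the enzyme that cuts heparan sulfate, stood at 149 ± 23.8 CPM in tuNK and 26.9 ± 4.33 CPM in spNK, and rose by 2.47 ± 0.15. Ext2, Chpf and Fam20b, which take part in chain synthesis, rose by 0.37, 0.60 and 0.25. Chsy1, a chondroitin sulfate synthase, stood at 112 ± 22.6 CPM in tuNK and 405 ± 56.5 CPM in spNK and fell by 1.86 ± 0.16, but was not called when leukocyte-scaled (-0.13, edgeR adjusted p = 0.357). B3gat3, Chst12 and Sulf2 fell by 1.36, 0.65 and 1.65, and leukocyte-scaled they were at 0.38, 1.08 and 0.09.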

How the data were processed

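Gene expression was measured by RNA sequencing in 4 tuNK and 4 spNK libraries. Per the labels' protocols, tissue was digested with enzymes for 60 minutes, cells were sorted by magnetic beads and flow cytometry, and directional polyA libraries were made from 20 ng of RNA and read as pairs of 60 nucleotides. Per the submitters' processing notes, FastQC 0.11.9, STAR and Salmon were used with GRCm38 (mm10). Not given in the sources used here are the versions of STAR and Salmon, the gene annotation, and how counting treated strand. The deposited estimated counts are not normalised, and 7.9 to 8.82% of them per library were not whole. The deposited TPM sum to 1000000 per library.

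Estimated counts were rounded. Library totals ran from 38745721 to 53886923, so 3 counts are 0.063 CPM in spNK and 0.0751 CPM in tuNK on average, and such floors cover counting error only. Genes were filtered with filterByExpr (minimum count 10), scaled with TMM and tested with the robust quasi-likelihood F test of edgeR 4.0.16 (R 4.3.3) on all 14006 genes that passed, with Benjamini-Hochberg adjustment and a threshold of 0.05. Standard errors are the log2 fold change divided by the square root of F. The common dispersion was 0.071. Levels are TMM-scaled CPM (mean ± SD), and TPM is used where genes are compared. Positions are from GENCODE M21 (GRCm38), which holds all 48 identifiers. Of 253 entries of the other lists 252 matched. DESeq2 1.42.0 and limma 3.58.1 were run as alternatives. Strand was not known to be used in counting, so reads of genes that overlap on opposite strands may be exchanged.

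The members and lists were chosen with earlier results of these data known, so neither the counts nor the lists are independent evidence. All 48 members could be named. Values in every library were to be given for the 4 most abundant of each class, those called lower and those whose call changed under an alternative. From the 2 other matrix lists, the 4 most abundant genes called in each direction were named.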

Additional observations from a re-analysis of the deposited data

Results flagged for a closer look

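For the 43 tested members, 1 library of 4 stood apart from its group in 19 cases: its gap to the nearest of the other 3 took a share of the range above Dixon's 95% critical value for 4 samples. Across the 84 groups checked that have any spread, chance alone gives about 5%, and many of these members share a library. That share does not apply to 7 of the 12 cases in spNK (Thbs2, Lox, Lama3, Lama4, Lama5, Vcan and Mfap5), in which the other 3 libraries were at 0, so that any count stands apart.

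In tuNK, all 7 cases were high values in tuNK 1. They were Loxl3 at 80.4 CPM, Fstl1 at 12.7 CPM, Lox at 9.24 CPM, Loxl1 at 6.63 CPM, Mfap5 at 3.7 CPM, Loxl2 at 3.57 CPM and Postn at 2.87 CPM. All lysyl oxidases of the member list are thus among them. The fibroblast and mesenchymal marker sum was also highest in tuNK 1, at 3720 CPM, against 2480 to 2550 CPM in the other 3 tuNK libraries, and its part in these values was not tested.

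In spNK, the library spNK 3 stood high for Fn1 at 33.7 CPM, Fbn1 at 0.47 CPM, Vcan at 0.429 CPM, Lama5 at 0.408 CPM and Lama4 at 0.0817 CPM, and low for Sdc4 at 15.5 CPM. It also had the highest sums of macrophage (270 CPM, of which Lyz2 243 CPM), epithelial (10.2 CPM), plasma cell (1340 CPM), B cell (32.9 CPM), erythroid (729 CPM) and neutrophil markers (145 CPM) of its group, and the lowest of NK markers (12600 CPM). Their part in these values was not tested. The library spNK 2 stood high for Lama2 at 0.32 CPM, Thbs2 at 0.195 CPM and Lama3 at 0.0888 CPM, spNK 1 for Mfap5 at 0.256 CPM and Lox at 0.0698 CPM, and spNK 4 for Fbln5 at 0.295 CPM. Most of these spNK values come from few reads, since 3 counts are 0.063 CPM in spNK on average.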

How the results depend on the processing

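Over 19 alternatives the 43 tested members gave 809 values, of which 772 kept their direction and their side of the threshold, 26 lost a call, 7 gained one and 4 changed sign. For 32 of the 43 members the call was the same in every alternative that tested them. The count of members called higher was 38, with 32 on log2(TPM + 1) in limma and with a filter of 1 CPM (36 members tested), 35 with length offsets and on log2(TPM + 0.1), 39 with DESeq2, and 36 to 41 with 1 library left out. The count called lower was 1, was 1 to 2 with 1 library left out (2 without spNK 3 and without tuNK 1), and was 2 with both of these left out, an alternative added after seeing the data. Scaling to leukocyte genes left 0 members lower and called 11074 of all genes higher and 843 lower, against 4983 and 4761 with TMM. With it Gpc1 (1.64), Sdc3 (1.54) and Thbs1 (1.09) changed sign, as did Sdc3 (0.03) with both libraries left out. The share of calls that were higher was 51.1% with TMM, 92.9% scaled to leukocyte genes, 44% by library size and 42% on log2 TPM. Which scale is right was not tested.

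The same replicate numbers stand in both groups, and the labels do not say whether they pair the libraries. The deviations of same-numbered libraries correlated by -0.0081 to 0.0417. This cannot decide the pairing, since a spleen and a tumour library of the same mouse need not deviate together. With the replicate block, 36 members were called higher (38 without it; Nid2 and Postn lost their calls) and 1 lower, and 4926 and 4629 of all genes. As a hint from the data, tuNK 2, 3 and 4 correlated best with their own number and tuNK 1 with spNK 3. Members under about 1 CPM rest on few reads, which limits Nid2, Postn, Vcan and Lama4 most.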
